A study of Mus musculus with 30 samples.

Results

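The genes described here are 33 members of glycolysis and of glucose and lactate transport, taken by gene symbol from the 36528 gene IDs counted in each library. They comprise the hexokinases Hk1, Hk2 and Hk3, the phosphofructokinases Pfkl, Pfkm and Pfkp, and the regulatory Pfkfb2, Pfkfb3 and Pfkfb4. The remaining enzymes of the route to lactate are Gpi1, Aldoa, Aldoc, Tpi1, Gapdh, Pgk1, Pgam1, Eno1, Eno2, Pkm, Ldha and Ldhb. The glucose and fructose transporters Slc2a1, Slc2a3 and Slc2a5 and the monocarboxylate transporters Slc16a1, Slc16a3 and Slc16a7 carry substrate across the plasma membrane. Pdk1, Pdk2 and Pdk4 hold back pyruvate from the citric acid cycle, G6pdx and Pgd belong to the pentose phosphate branch, and Hif1a encodes a transcription factor of the hypoxia response. All 33 symbols were found in the count files.

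The study sorted Cd11b+ myeloid cells, Gfap+ astrocytes and NeuN+ neurons from mouse brains and sequenced their total RNA. The mice were PS2APP transgenics and their non-transgenic (non-Tg) littermates, all 11.5 months old. Each of the 6 groups (3 populations, 2 genotypes) had 5 libraries, 30 in all. The PS2APP line carries human presenilin 2 and amyloid precursor protein transgenes with familial Alzheimer's disease mutations, driven in this line by the prion protein and Thy1 promoters. The labels name the line without its promoters, and which animal gave which library is not in them. The p-values here therefore reflect only how far libraries of a group spread. Library numbers 1 to 5 within a group are names only.

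Glycolysis splits glucose into pyruvate in the cytosol, and most steps can be served by more than 1 isoenzyme encoded by separate genes. In the brain, astrocytes take up glucose through Slc2a1 (GLUT1), store some as glycogen and export lactate, neurons take up glucose through Slc2a3 (GLUT3) and lactate through Slc16a7 (MCT2), and microglia express the fructose transporter Slc2a5 (GLUT5). Activated macrophages and microglia are known to raise glycolysis, and Hif1a is a known regulator of several of its enzymes and transporters.

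Total counts per library lay between 2015535 and 6749681, and PS2APP myeloid libraries were the shallowest, so that 3 counts were worth 0.444 to 1.49 CPM (counts scaled to sequencing depth) across libraries. Counts of mitochondrially encoded genes took 13.5 ± 2.97% of PS2APP and 8.75 ± 2.89% of non-Tg myeloid libraries, 6.91 ± 1.14% and 3.58 ± 0.866% of PS2APP and non-Tg astrocyte libraries, and 1.51 ± 0.268% and 1.20 ± 0.336% of PS2APP and non-Tg neuron libraries (SD, n = 5 each). Defining markers were in place: 12 microglial markers summed to 8690 CPM in PS2APP and 10354 CPM in non-Tg myeloid libraries, 12 astrocyte markers to 11450 and 14395 CPM in PS2APP and non-Tg astrocyte libraries, and 12 neuronal markers to 4087 and 3175 CPM in PS2APP and non-Tg neuron libraries. Neuronal markers also gave 586 and 335 CPM in PS2APP and non-Tg myeloid libraries and 806 and 414 CPM in PS2APP and non-Tg astrocyte libraries. The libraries farthest from the rest on the first principal component were PS2APP myeloid 4, PS2APP astrocyte 3 and PS2APP neuron 5. In bulk RNA of this kind, fewer cells of a type and less RNA per cell cannot be told apart.

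Promoter windows of 7 members on which the results turn are printed below, to set the letters upstream of myeloid, astrocyte and neuronal isoenzyme genes beside one another. Each window runs 5′ to 3′ from 250 bases before to 50 bases after the outermost annotated start, from RefSeq on GRCm38.p6. Capitals mark the hypoxia-response cores ACGTG and GCGTG in either orientation (read on the other strand as CACGT and CACGC).
Hk2, chr6:82774405-82774704, minus strand: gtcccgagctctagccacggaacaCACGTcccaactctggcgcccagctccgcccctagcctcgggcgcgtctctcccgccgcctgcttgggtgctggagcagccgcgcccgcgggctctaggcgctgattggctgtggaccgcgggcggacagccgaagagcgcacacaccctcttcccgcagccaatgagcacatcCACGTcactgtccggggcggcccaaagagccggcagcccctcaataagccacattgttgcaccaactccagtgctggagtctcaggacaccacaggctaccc
Slc2a5, chr4:150119094-150119393, plus strand: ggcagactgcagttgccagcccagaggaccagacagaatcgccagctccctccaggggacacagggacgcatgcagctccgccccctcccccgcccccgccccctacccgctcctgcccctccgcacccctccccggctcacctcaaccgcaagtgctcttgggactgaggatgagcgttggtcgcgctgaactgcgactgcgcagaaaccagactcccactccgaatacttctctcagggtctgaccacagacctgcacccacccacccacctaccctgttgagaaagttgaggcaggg
Pkm, chr9:59656326-59656625, plus strand: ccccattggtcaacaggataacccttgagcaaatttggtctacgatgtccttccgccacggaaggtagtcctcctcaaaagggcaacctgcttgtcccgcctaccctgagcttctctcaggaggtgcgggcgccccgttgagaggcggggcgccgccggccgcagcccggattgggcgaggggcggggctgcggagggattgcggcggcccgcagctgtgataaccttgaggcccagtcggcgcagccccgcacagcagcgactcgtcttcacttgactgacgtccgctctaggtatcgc
Pfkl, chr10:78009758-78010057, minus strand: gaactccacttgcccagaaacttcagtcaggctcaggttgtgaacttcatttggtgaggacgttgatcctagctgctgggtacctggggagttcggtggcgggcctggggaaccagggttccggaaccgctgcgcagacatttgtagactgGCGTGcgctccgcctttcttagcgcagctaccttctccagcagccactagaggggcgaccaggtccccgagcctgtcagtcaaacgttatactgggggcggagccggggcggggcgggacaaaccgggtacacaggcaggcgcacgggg
Aldoc, chr11:78322823-78323122, plus strand: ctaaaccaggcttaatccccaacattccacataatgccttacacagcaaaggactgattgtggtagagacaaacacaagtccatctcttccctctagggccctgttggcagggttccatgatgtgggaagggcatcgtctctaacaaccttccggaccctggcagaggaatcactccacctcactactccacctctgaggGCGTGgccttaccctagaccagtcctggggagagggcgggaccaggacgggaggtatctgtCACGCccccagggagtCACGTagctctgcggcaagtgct
Slc2a1, chr4:119108495-119108794, plus strand: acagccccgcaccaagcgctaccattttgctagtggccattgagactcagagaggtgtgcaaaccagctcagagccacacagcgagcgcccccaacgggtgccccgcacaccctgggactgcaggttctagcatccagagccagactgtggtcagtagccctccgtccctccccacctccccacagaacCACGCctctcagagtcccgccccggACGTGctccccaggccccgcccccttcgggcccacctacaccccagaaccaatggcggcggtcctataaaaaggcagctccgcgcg
Eno2, chr6:124769624-124769923, minus strand: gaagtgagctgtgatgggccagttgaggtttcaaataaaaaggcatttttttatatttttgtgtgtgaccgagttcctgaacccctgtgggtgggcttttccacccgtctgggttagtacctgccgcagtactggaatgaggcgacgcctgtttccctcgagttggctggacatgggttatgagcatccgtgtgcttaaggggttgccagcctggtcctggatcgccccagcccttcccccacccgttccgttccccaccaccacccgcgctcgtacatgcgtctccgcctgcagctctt

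The table of promoter windows held 31 of the 33 members, without Slc2a3 and Slc16a7. The letters ACGTG stood in 15 of these 31 windows, against 19.6% of all 32851 windows of the same length, and GCGTG stood in 16 of 31, against 32.4% of all windows. At least 1 of these cores was present in 24 of 31 windows (77.4%), against 43.8% of all windows. The longer CACGTG, which holds ACGTG on both strands, was present in 16.1% of the members' windows and 7.15% of all windows. Hk2 had 2 ACGTG cores, Aldoc 1 ACGTG and 2 GCGTG, Slc2a1 1 of each and Pfkl 1 GCGTG. Pkm, Eno2 and Slc2a5 had none in these windows. Each member gave 1 window, while all windows can include several per gene. Both cores hold the letters CG, and the 2 sets were not matched for CG content. These matches describe letters, not binding sites.

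The populations differed in the isoenzymes and transporters they expressed (plot of levels by population). Deposited RPKM (reads per kilobase of gene, scaled by 1 factor per library) was the scale used wherever genes are compared with each other. That factor did not follow total counts alone. By this scale, 17 members were highest in PS2APP myeloid cells, 10 in PS2APP astrocytes and 6 in PS2APP neurons. In non-Tg libraries the counts were 16, 10 and 7 in the same order of populations. Counting only members whose highest population did not overlap with the second gave 9, 3 and 1 in PS2APP and 8, 6 and 4 in non-Tg libraries. The same counts over all genes were not made, so these counts show no lean of the members toward a population. They include near ties, such as non-Tg Pfkl (2.556 RPKM in myeloid cells, 2.550 RPKM in neurons) and Hif1a (3.406 and 3.327 RPKM). With edgeR's quasi-likelihood test at a Benjamini-Hochberg adjusted p under 0.05, 24 of 32 members tested differed between non-Tg myeloid cells and neurons, 16 higher and 8 lower, against 67.9% of all 18101 genes, 34.1% higher and 33.7% lower. Between non-Tg astrocytes and neurons 18 of 32 differed, 11 higher and 7 lower, against 51.7% of all genes, 26.9% higher and 24.8% lower. Between non-Tg myeloid cells and astrocytes 23 of 32 differed, 11 higher and 12 lower, against 57.4% of all genes, 26.8% higher and 30.7% lower. In PS2APP libraries the same contrasts gave 27, 20 and 27 of 32 members, against 65.5%, 50.4% and 53.3% of all genes. Pgam1 was too low to be tested. Median-ratio size factors moved the median log2 difference of all genes to -0.20 from 0.027 between non-Tg myeloid cells and neurons, and to -0.28 from -0.11 between non-Tg myeloid cells and astrocytes, so myeloid log2 differences are relative to a centre that moves by that much.

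**Figure D1:**
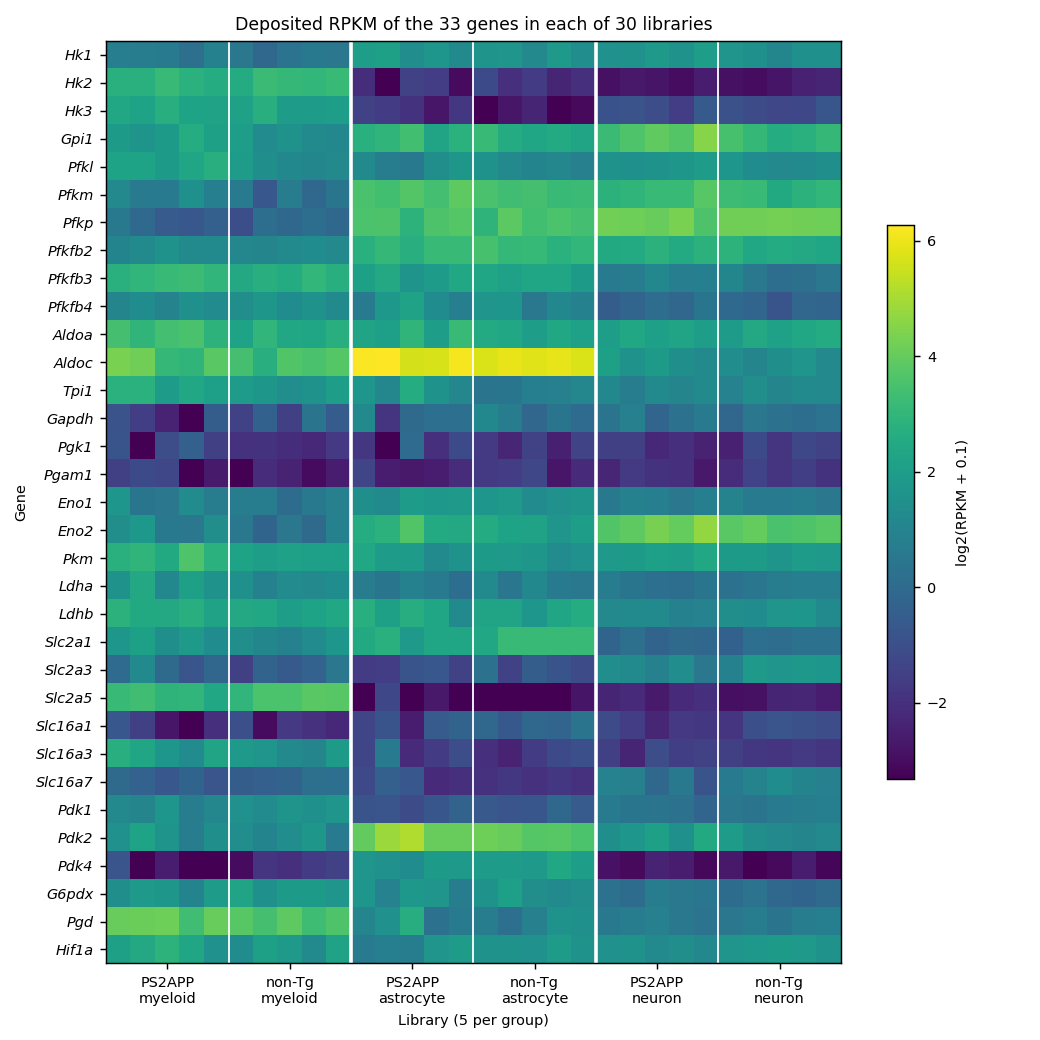
Deposited RPKM of each of the 33 members (rows) in each of the 30 libraries (columns, 5 per group, PS2APP left of non-Tg in each population), as colour on a log2 scale with a pseudocount of 0.1 RPKM. Hk2, Hk3, Slc2a5, Slc16a3 and Pgd stand out in the myeloid columns of both genotypes, Aldoc, Pdk2 and Pdk4 in the astrocyte columns and Eno2 in the neuron columns. Slc2a1 in astrocytes, and Pfkp, Slc2a3 and Slc16a7 in neurons, stand apart in non-Tg columns. In PS2APP columns these genes overlap with another population.

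**Figure D2:**
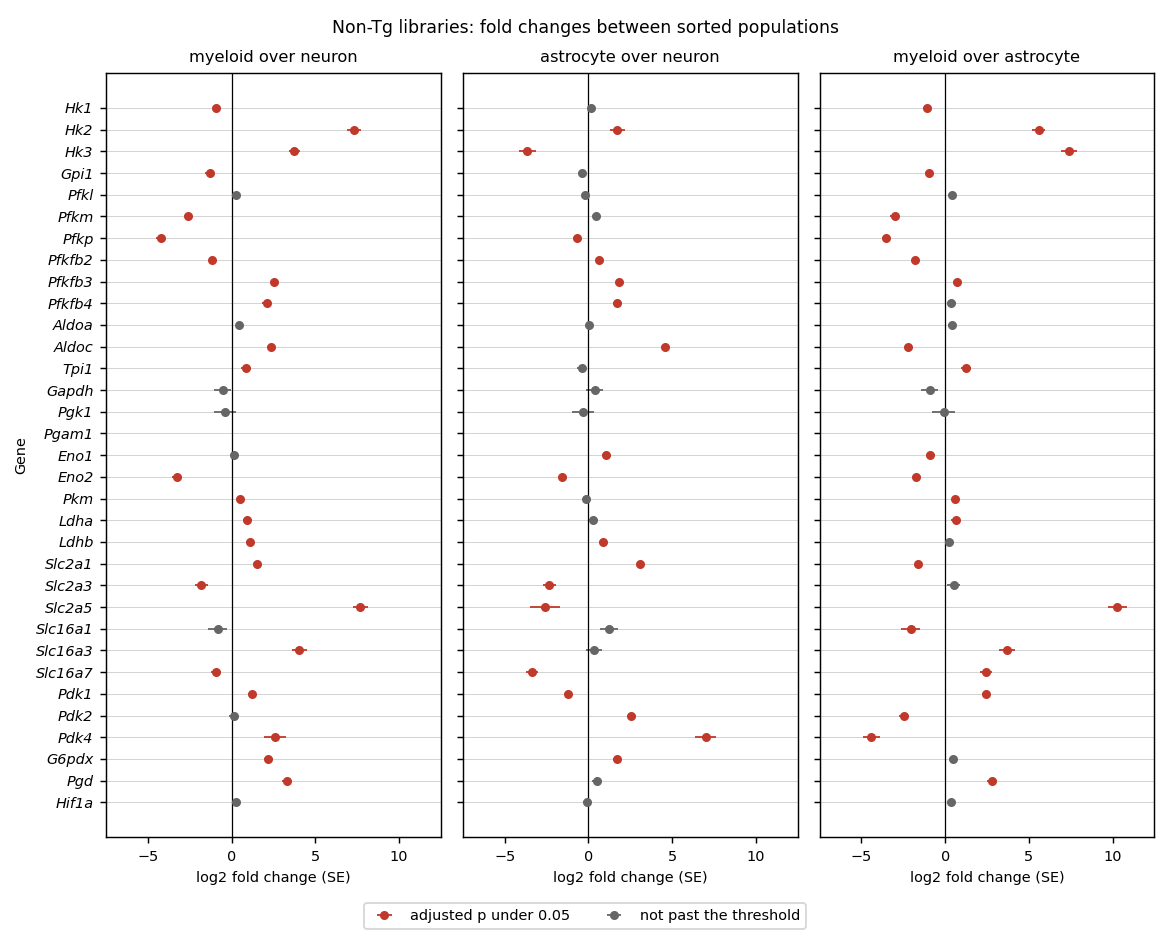
Log2 fold change of each tested member between non-Tg populations (myeloid over neuron, astrocyte over neuron, myeloid over astrocyte) with its standard error, in red where the adjusted p was under 0.05. Hk2 lies at 7.30 and Pfkp at -4.24 for myeloid over neuron; the Slc2a5 points that involve astrocytes rest on 2 counts in non-Tg astrocyte libraries and depend on the fit.

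The hexokinases, which trap glucose in the cell as glucose 6-phosphate, split by population. Hk2, the inducible form, had 5.89, 9.15, 8.29, 8.06 and 8.62 RPKM in the 5 non-Tg myeloid libraries, 0.342, 0.142, 0.216, 0.0987 and 0.146 RPKM in non-Tg astrocyte libraries and 0.0349, 0.0255, 0.0445, 0.0864 and 0.101 RPKM in non-Tg neuron libraries. The myeloid libraries lay above all others, with a log2 difference of 7.30 ± 0.42 from neurons (SE, adjusted p = 2.2e-17, edgeR) and 5.58 ± 0.38 from astrocytes (adjusted p = 2.9e-15). Hk3, a form of blood and myeloid cells, averaged 4.46 ± 1.12 RPKM in non-Tg myeloid, 0.0331 ± 0.0412 RPKM in non-Tg astrocyte and 0.385 ± 0.0789 RPKM in non-Tg neuron libraries (SD, n = 5 each). Its level in neuron libraries was 8.12% of the myeloid level in PS2APP and 8.63% in non-Tg mice, where the 12 microglial markers stood at medians of 0.844% and 0.556% of theirs. The part of myeloid RNA in the neuron libraries' Hk3 was not tested. Hk1, the form most tissues use, was instead higher in neurons and astrocytes, at 1.18 ± 0.213 RPKM in non-Tg myeloid, 2.84 ± 0.481 RPKM in non-Tg astrocyte and 2.66 ± 0.406 RPKM in non-Tg neuron libraries. Its log2 difference was -0.94 ± 0.21 for myeloid cells over neurons and -1.09 ± 0.21 for myeloid cells over astrocytes (adjusted p = 1.7e-04 and 3.1e-05). Hk1 made up 8.91% of summed hexokinase RPKM in non-Tg myeloid cells, 92.5% in non-Tg astrocytes and 85.7% in non-Tg neurons, and Hk2 took 58.5% in non-Tg myeloid cells (means of 5 libraries).

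Phosphofructokinase catalyses the committing step, and its 3 subunit genes divided along the same line. Pfkp, the platelet form, had 0.398, 1.01, 0.817, 1.02 and 0.814 RPKM in non-Tg myeloid libraries, 7.44, 14.3, 10.1, 11.6 and 10.5 RPKM in non-Tg astrocyte libraries and 18.2, 17.96, 19.1, 18.04 and 17.5 RPKM in non-Tg neuron libraries. No non-Tg neuron library overlapped a non-Tg library of another population, and the log2 difference of myeloid cells from neurons was -4.24 ± 0.25 (adjusted p = 4.8e-17, edgeR). Pfkm, the muscle form, averaged 1.12 ± 0.437 RPKM in non-Tg myeloid, 10.1 ± 1.02 RPKM in non-Tg astrocyte and 7.77 ± 1.498 RPKM in non-Tg neuron libraries. Pfkl, the liver form, was at 2.56 ± 0.740, 2.15 ± 0.423 and 2.55 ± 0.405 RPKM in non-Tg myeloid, astrocyte and neuron libraries and passed no non-Tg population test. With the other subunits low, Pfkl made up 56.4% of phosphofructokinase RPKM in non-Tg myeloid cells, against 9.39% in non-Tg astrocytes and 8.92% in non-Tg neurons. In PS2APP libraries the share of Pfkl was 64.2% in myeloid cells, 8.49% in astrocytes and 10.6% in neurons.

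The bifunctional Pfkfb enzymes set the level of fructose 2,6-bisphosphate, which activates phosphofructokinase. Pfkfb3, the form with the highest kinase over phosphatase activity, averaged 6.53 ± 1.02 RPKM in non-Tg myeloid, 4.59 ± 0.585 RPKM in non-Tg astrocyte and 1.33 ± 0.404 RPKM in non-Tg neuron libraries. Each step of this order passed the test, with a log2 difference of 0.68 ± 0.19 between myeloid cells and astrocytes (adjusted p = 0.00217, edgeR) and 1.84 ± 0.19 between astrocytes and neurons (adjusted p = 3.7e-10). Pfkfb4 was likewise low in neurons, by log2 differences of 2.09 ± 0.27 (myeloid over neuron) and 1.71 ± 0.27 (astrocyte over neuron). Pfkfb2 was lowest in myeloid cells and highest in astrocytes, at 2.19 ± 0.171 RPKM in non-Tg myeloid, 8.55 ± 1.56 RPKM in non-Tg astrocyte and 5.75 ± 0.867 RPKM in non-Tg neuron libraries, with log2 differences of -1.16 ± 0.16 (myeloid over neuron) and 0.64 ± 0.16 (astrocyte over neuron), and made up 73.7% of Pfkfb RPKM in non-Tg neurons. Pfkfb3 took 64.0% (62.0 to 65.6%) of Pfkfb RPKM in PS2APP myeloid cells, against 57.1% (53.7 to 60.9%) in non-Tg myeloid cells. Shares within an enzyme family are given as descriptions, without a test. In some families the gene with the highest mean share differed between the 2 genotypes, but the ranges of the shares overlapped in each. In myeloid cells it was Eno2 (53.5%) in PS2APP and Eno1 (54.7%) in non-Tg libraries among the enolases. Among the pyruvate dehydrogenase kinases it was Pdk2 (55.1%) in PS2APP and Pdk1 (53.4%) in non-Tg myeloid libraries. In astrocytes it was Pfkm (47.3%) in PS2APP and Pfkp (46.6%) in non-Tg libraries among the phosphofructokinases. The share of Eno2 was 35.3 to 73.1% in PS2APP and 32.8 to 57.8% in non-Tg myeloid libraries. That of Pdk1 was 30.1 to 50.6% in PS2APP and 43.4 to 64.7% in non-Tg myeloid libraries. That of Pfkm was 41.5 to 59.95% in PS2APP and 37.7 to 52.7% in non-Tg astrocyte libraries.

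Aldolase, which cleaves fructose 1,6-bisphosphate, was dominated by Aldoc in astrocytes. Aldoc, the brain form and an astrocyte marker, had 10.8, 6.56, 12.4, 11.3 and 13.4 RPKM in non-Tg myeloid libraries, 53.1, 62.1, 55.7, 59.8 and 52.6 RPKM in non-Tg astrocyte libraries and 2.52, 1.96, 2.67, 3.14 and 2.21 RPKM in non-Tg neuron libraries. The 3 ranges did not overlap, and the log2 difference of astrocytes from neurons was 4.57 ± 0.26 (adjusted p = 2.7e-17, edgeR). Aldoc in myeloid libraries stood at 21.2% of its astrocyte level in PS2APP mice and 19.2% in non-Tg mice, where 12 astrocyte markers ranged from 0.918 to 89.2% (median 3.48%) and from 1.76 to 60.9% (median 3.71%). The part of astrocyte RNA in the myeloid Aldoc level was not tested. Aldoa, the ubiquitous form, was at 5.82 ± 1.34, 4.91 ± 0.670 and 4.96 ± 0.829 RPKM in non-Tg myeloid, astrocyte and neuron libraries, and passed no non-Tg population test. Aldoc thus held 64.6% of aldolase RPKM in non-Tg myeloid cells, 92.0% in non-Tg astrocytes and 33.7% in non-Tg neurons.

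Gpi1, which converts glucose 6-phosphate to fructose 6-phosphate, was lower in myeloid cells, at 2.75 ± 0.768 RPKM in non-Tg myeloid, 6.0 ± 1.56 RPKM in non-Tg astrocyte and 8.004 ± 1.94 RPKM in non-Tg neuron libraries. Tpi1, which interconverts the triose phosphates, averaged 3.31 ± 0.629 RPKM in non-Tg myeloid, 1.57 ± 0.370 RPKM in non-Tg astrocyte and 2.17 ± 0.305 RPKM in non-Tg neuron libraries, and was higher in myeloid cells than in astrocytes by 1.25 ± 0.28 on the log2 scale (adjusted p = 2.4e-04, edgeR). Gapdh, Pgk1 and Pgam1, which carry glyceraldehyde 3-phosphate to 2-phosphoglycerate, were listed near 0 everywhere, with group means of 0.279 to 1.32 RPKM for Gapdh and 0.0627 to 0.350 RPKM for Pgk1 and Pgam1. These genes have many processed pseudogenes: 41.6% of the 50-base words of Gapdh transcripts, 32.0% of those of Pgk1 and 58.5% of those of Pgam1 occur in no other annotated gene. For Gapdh, 213 pseudogenes share such words. How the authors counted reads that match several genes is not given in the sources used here. For that reason the levels of these genes, and of Eno1 (50.5% unique), Pfkfb2 (75.0%), Gpi1 (75.6%), Pkm (76.3%), Ldhb (79.0%), Pfkp (84.6%), G6pdx (89.5%) and Ldha (89.6%, with 14 pseudogenes), are uncertain. The unique shares do not bound the error. Family shares that set Eno1 beside Eno2 (99.8% unique) carry the same uncertainty.

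Enolase, the next step, showed the textbook neuronal form. Eno2, neuron-specific enolase, had 1.32, 0.754, 1.30, 0.885 and 1.75 RPKM in non-Tg myeloid libraries, 5.81, 4.67, 4.50, 3.13 and 3.90 RPKM in non-Tg astrocyte libraries and 13.9, 16.0, 11.4, 12.2 and 13.8 RPKM in non-Tg neuron libraries. The ranges did not overlap, with log2 differences from neurons of -3.27 ± 0.28 for myeloid cells and -1.55 ± 0.26 for astrocytes (adjusted p = 1.2e-12 and 3.6e-06, edgeR). Eno2 in astrocyte libraries was 41.4% of its neuronal level in PS2APP and 32.6% in non-Tg mice, above the median of 12 neuronal markers there (19.3% and 19.2%) and within their range. Eno1, the ubiquitous form, was higher in astrocytes, by 1.05 ± 0.26 on the log2 scale over neurons. Pkm, the last glycolytic kinase, averaged 4.26 ± 0.262 RPKM in non-Tg myeloid, 3.13 ± 0.538 RPKM in non-Tg astrocyte and 3.54 ± 0.304 RPKM in non-Tg neuron libraries. Its excess in non-Tg myeloid cells over neurons, 0.49 ± 0.20 on the log2 scale (adjusted p = 0.0281), was lost with median-ratio size factors and with DESeq2 (0.26 in both), with no low-count filter and without the 3 libraries farthest out (0.36 in both), and without non-Tg myeloid 1 (0.46) or non-Tg neuron 3 (0.43). Gene-level counts do not separate the splice forms of Pkm.

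Lactate dehydrogenase interconverts pyruvate and lactate, and Ldhb, the heart form, held the larger share in every population. Ldhb was 67.9% of the RPKM of the pair in non-Tg myeloid cells, 73.1% in non-Tg astrocytes and 65.4% in non-Tg neurons. Its level was 4.90 ± 0.582 RPKM in non-Tg myeloid and 4.71 ± 0.9997 RPKM in non-Tg astrocyte libraries, above 2.71 ± 0.412 RPKM in non-Tg neuron libraries, by log2 differences of 1.09 ± 0.24 and 0.87 ± 0.24. Ldha, the muscle form, averaged 2.31 ± 0.349 RPKM in non-Tg myeloid, 1.69 ± 0.489 RPKM in non-Tg astrocyte and 1.43 ± 0.235 RPKM in non-Tg neuron libraries, and was higher in myeloid cells than in neurons (0.92 ± 0.27, adjusted p = 0.00277, edgeR).

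**Figure D3:**
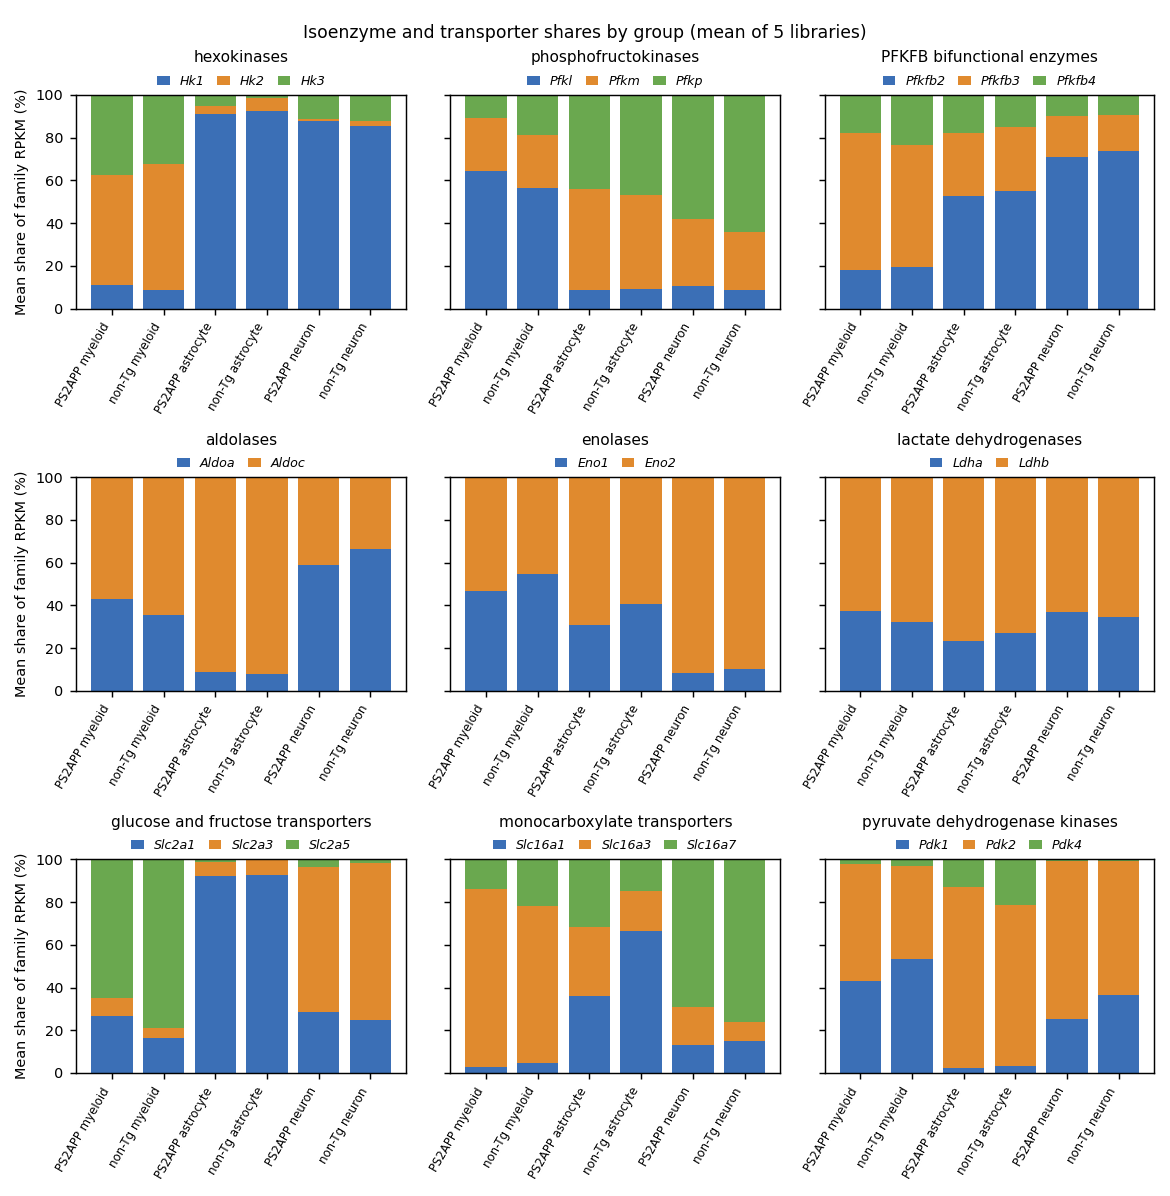
Share of each gene in the summed deposited RPKM of its family (percent), as the mean of 5 libraries, stacked to 100%, for PS2APP left of non-Tg in each population. Hk2 held 51.5% of hexokinase RPKM in PS2APP and 58.5% in non-Tg myeloid cells, and Slc2a5 held 65.0% and 79.0% of the RPKM of the 3 glucose and fructose transporters there.

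Each of the 3 hexose transporters was highest in a different population. Slc2a5, the fructose transporter of microglia, had 7.87, 11.5, 11.8, 13.9 and 13.5 RPKM in non-Tg myeloid libraries and 0.0304, 0.0333, 0.0967, 0.105 and 0.0673 RPKM in non-Tg neuron libraries, a log2 difference of 7.69 ± 0.45 (adjusted p = 4.5e-17, edgeR). In astrocyte libraries its counts were 0, 9, 0, 3 and 0 in PS2APP and 0, 0, 0, 0 and 2 in non-Tg mice, too few for a fold. Slc2a1, the transporter of astrocytes and of the blood-brain barrier, had 2.60, 2.00, 1.75, 2.34 and 3.22 RPKM in non-Tg myeloid libraries, 5.29, 8.86, 8.92, 8.72 and 8.78 RPKM in non-Tg astrocyte libraries and 0.684, 1.03, 0.967, 1.10 and 1.11 RPKM in non-Tg neuron libraries. All non-Tg astrocyte libraries were above all non-Tg libraries of the other populations, by 3.11 ± 0.23 on the log2 scale over neurons (adjusted p = 7.1e-14). Endothelial and mural markers, also a source of Slc2a1, summed to 199 CPM in PS2APP and 187 CPM in non-Tg astrocyte libraries and 75.3 and 57.8 CPM in PS2APP and non-Tg myeloid libraries, and their part in Slc2a1 was not tested. Slc2a3, the neuronal transporter, had 0.249, 0.732, 0.554, 0.699 and 1.31 RPKM in non-Tg myeloid libraries, 1.10, 0.269, 0.615, 0.456 and 0.361 RPKM in non-Tg astrocyte libraries and 1.77, 3.42, 3.10, 3.34 and 3.17 RPKM in non-Tg neuron libraries. The non-Tg neuron libraries were above every other non-Tg library, with log2 differences from neurons of -1.81 ± 0.37 for myeloid cells and -2.33 ± 0.38 for astrocytes. In PS2APP libraries Slc2a1 in astrocytes and Slc2a3 in neurons overlapped with myeloid libraries.

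Among the monocarboxylate transporters, which move lactate and pyruvate, a different gene led in each non-Tg population. Slc16a3 (MCT4), the lactate exporter of glycolytic cells, had 3.43, 3.06, 2.17, 1.97 and 3.63 RPKM in non-Tg myeloid libraries, 0.146, 0.0963, 0.220, 0.345 and 0.411 RPKM in non-Tg astrocyte libraries and 0.2502, 0.197, 0.172, 0.210 and 0.171 RPKM in non-Tg neuron libraries. It was higher in myeloid cells by 3.70 ± 0.46 over astrocytes and 4.04 ± 0.46 over neurons on the log2 scale (adjusted p = 1.3e-08 and 1.4e-09, edgeR). In astrocyte libraries it stood at 11.6% of the myeloid level in PS2APP and 8.54% in non-Tg mice, where the microglial markers had medians of 1.43% and 0.490%. Slc16a7 (MCT2), the high-affinity neuronal importer, averaged 0.822 ± 0.213 RPKM in non-Tg myeloid, 0.171 ± 0.0195 RPKM in non-Tg astrocyte and 1.86 ± 0.388 RPKM in non-Tg neuron libraries. Astrocytes were below neurons by -3.36 ± 0.36 on the log2 scale (adjusted p = 3.9e-10). Slc16a1 (MCT1), of astrocytes, oligodendrocytes and endothelium, was low throughout, with 0.836, 0.518, 0.811, 0.771 and 1.18 RPKM in non-Tg astrocyte libraries, and made up 66.5% of the RPKM of the 3 transporters there. In PS2APP astrocytes no gene led, with mean shares of 35.9% for Slc16a1 (10.2 to 62.2%), 32.2% for Slc16a3 (17.5 to 56.7%) and 31.9% for Slc16a7 (12.2 to 72.3%).

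The pyruvate dehydrogenase kinases, which switch off the entry of pyruvate into the citric acid cycle, were divided between astrocytes and myeloid cells. Pdk4 had 0.0208, 0.173, 0.143, 0.215 and 0.260 RPKM in non-Tg myeloid libraries, 3.76, 3.88, 3.50, 5.09 and 3.97 RPKM in non-Tg astrocyte libraries and 0.0575, 0, 0.0183, 0.0711 and 0.0127 RPKM in non-Tg neuron libraries. Astrocytes stood apart by 7.00 ± 0.63 on the log2 scale over neurons (adjusted p = 8.2e-12, edgeR), the largest log2 difference of any member in that contrast. Pdk2, the most abundant kinase of the 3 in astrocytes, averaged 2.34 ± 0.704 RPKM in non-Tg myeloid, 14.5 ± 2.44 RPKM in non-Tg astrocyte and 2.54 ± 0.719 RPKM in non-Tg neuron libraries. Pdk1, a known Hif1a target, was highest in myeloid cells, at 2.81 ± 0.291 RPKM in non-Tg myeloid, 0.581 ± 0.137 RPKM in non-Tg astrocyte and 1.42 ± 0.181 RPKM in non-Tg neuron libraries. Pgd and G6pdx, the NADPH-producing enzymes of the pentose phosphate branch, were higher in myeloid cells than in neurons by 3.30 ± 0.32 and 2.18 ± 0.26 on the log2 scale. Pgd averaged 12.2 ± 2.08 RPKM in non-Tg myeloid, 1.98 ± 0.781 RPKM in non-Tg astrocyte and 1.45 ± 0.198 RPKM in non-Tg neuron libraries. G6pdx was at 3.58 ± 0.746, 2.90 ± 0.757 and 0.923 ± 0.154 RPKM in the same non-Tg populations. Hif1a itself passed no non-Tg population test, at 3.41 ± 1.05, 3.005 ± 0.390 and 3.33 ± 0.301 RPKM in non-Tg myeloid, astrocyte and neuron libraries.

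Hk2, Pfkp and Aldoc differed in the same direction in PS2APP libraries, with log2 differences of 7.34 ± 0.43 for Hk2 and -4.30 ± 0.26 for Pfkp between PS2APP myeloid cells and neurons, and 4.42 ± 0.25 for Aldoc between PS2APP astrocytes and neurons. The 27 members called between PS2APP myeloid cells and neurons included 4 that were not called in non-Tg libraries. Of these, Aldoa was higher in PS2APP myeloid cells than in PS2APP neurons by 1.19 ± 0.22 on the log2 scale (adjusted p = 1.7e-05, edgeR), Hif1a by 1.05 ± 0.24 (adjusted p = 2.8e-04) and Pfkl by 0.72 ± 0.23 (adjusted p = 0.00553). Gapdh was lower (-1.93 ± 0.58), at the low counts described above. Ldha was higher by 1.63 ± 0.28 in PS2APP myeloid cells than in PS2APP neurons, and by 0.92 ± 0.27 in the non-Tg pair. Whether such differences change with genotype is the interaction test given further on.

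Of 89 listed genes of neighbouring pathways, 76 were tested between populations. As a whole they were called about as often as all genes or less: 43 of 76 between non-Tg myeloid cells and neurons, 39 of 76 between non-Tg astrocytes and neurons and 39 of 76 between non-Tg myeloid cells and astrocytes, against 67.9%, 51.7% and 57.4% of all genes. Of the 11 glycogen genes, 10 were higher and 0 lower in non-Tg astrocytes than in neurons, with a median log2 difference of 2.62 beside 0.017 for all genes, of which 26.9% were called higher and 24.8% lower. Among them were Ppp1r3c, which targets protein phosphatase 1 to glycogen (4.64 ± 0.31), the phosphorylase kinase subunit Phka1 (4.60 ± 0.22) and the brain glycogen phosphorylase Pygb (2.76 ± 0.18). Between non-Tg myeloid cells and astrocytes, 1 of 11 was higher and 7 were lower. Ppp1r3c (2.23 ± 0.30), Phka1 (1.97 ± 0.20) and Pygb (0.85 ± 0.17) were also higher in non-Tg myeloid cells than in neurons, and Gys1 was lower (-0.75 ± 0.26). Of 6 further pentose phosphate genes, 4 were higher and 0 lower in non-Tg myeloid cells than in neurons, beside 34.1% of all genes higher and 33.7% lower, among them Taldo1 (2.51 ± 0.32) and H6pd (1.90 ± 0.22). Of 12 tested hypoxia-pathway genes, 5 were higher and 0 lower in non-Tg astrocytes than in neurons, led by Epas1, which encodes HIF-2α (5.73 ± 0.40), and the angiogenic factor Vegfa (4.32 ± 0.31). In non-Tg myeloid cells over neurons, Epas1 was also higher (2.90 ± 0.38) and Vegfa lower (-0.89 ± 0.28). Of 13 genes of pyruvate entry and lactate handling, 3 were higher and 3 lower in non-Tg astrocytes than in neurons, with pyruvate carboxylase Pcx at 2.51 ± 0.32 and the phosphatase Pdp1 at -2.49 ± 0.32. Of 16 citric acid cycle genes, 4 were higher, near the share of all genes, and 1 was lower in the same contrast.

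In myeloid cells, 2 of the 28 members tested rose in PS2APP mice and 0 fell, against 3.36% of all 12274 genes, 1.86% higher and 1.50% lower. Pkm had 69.8, 80.8, 58.9, 125 and 72.0 CPM in the 5 PS2APP myeloid libraries and 50.3, 40.9, 46.8, 46.0 and 46.1 CPM in the 5 non-Tg myeloid libraries. Every PS2APP library was above every non-Tg library, and PS2APP myeloid 4 was the highest. The log2 fold change was 0.81 ± 0.21 (SE, adjusted p = 0.0318, edgeR). Pfkl had 56.7, 56.0, 45.6, 57.9 and 78.7 CPM in PS2APP myeloid libraries and 48.6, 32.7, 27.0, 25.8 and 27.7 CPM in non-Tg myeloid libraries. The groups overlapped through non-Tg myeloid 1, the highest of its group, and the log2 fold change was 0.87 ± 0.23 (adjusted p = 0.0405). Among the 28 members Pkm alone had groups that did not overlap, beside 4.80% of all genes. With each library left out in turn, the call of Pkm (log2 fold changes of 0.62 to 0.91) was lost without PS2APP myeloid 4 or 5 or non-Tg myeloid 2, 3, 4 or 5. The call of Pfkl (0.74 to 1.06) was kept only without non-Tg myeloid 1 among those 10 fits. With the mitochondrial share as a covariate, which itself moves with genotype, the log2 fold change was 0.57 for Pkm (adjusted p = 0.502) and 0.94 for Pfkl (adjusted p = 0.290).

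The other members gave no call in myeloid cells with this test, and 4 of them had an unadjusted p under 0.05. With Pkm and Pfkl that made 6 of 28 members, near the 19.3% of all genes. Slc2a5 had 96.4, 108, 80.6, 81.5 and 56.2 CPM in PS2APP and 88.2, 124, 130.1, 156 and 152 CPM in non-Tg myeloid libraries. All non-Tg libraries other than non-Tg myeloid 1 were above every PS2APP library, and the log2 fold change was -0.63 ± 0.19 (adjusted p = 0.0717, edgeR). DESeq2 called it at -0.61 (adjusted p = 0.0432), as did edgeR with no low-count filter (-0.68) and with the markers of the other populations as a covariate (-0.79). Aldoa had 67.5, 48.6, 66.9, 71.3 and 46.5 CPM in PS2APP and 30.3, 50.1, 33.4, 33.7 and 43.4 CPM in non-Tg myeloid libraries, a log2 fold change of 0.65 ± 0.22 (adjusted p = 0.0951), and was called higher by DESeq2 at 0.67. Tpi1 had 35.9, 36.5, 20.1, 27.4 and 21.7 CPM in PS2APP and 20.5, 17.4, 13.4, 16.4 and 22.5 CPM in non-Tg myeloid libraries, with 0.65 ± 0.29 on the log2 scale (adjusted p = 0.219). Eno2 had 28.5, 37.0, 15.6, 14.0 and 28.1 CPM in PS2APP and 15.3, 8.38, 14.8, 10.2 and 20.2 CPM in non-Tg myeloid libraries, with 0.85 ± 0.35 (adjusted p = 0.179). Neuronal markers summed to 474 to 638 CPM in PS2APP and 275 to 492 CPM in non-Tg myeloid libraries, with 1 of the 11 tested called higher. With the summed neuronal and astrocyte markers as a covariate, the log2 fold change of Eno2 was 0.53 (adjusted p = 0.478).

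Over all 28 members tested in myeloid cells, 21 log2 fold changes were positive, and their median was 0.29 beside -0.0021 for all genes. The other phosphofructokinases gave 0.70 ± 0.36 for Pfkm and -0.07 ± 0.30 for Pfkp. The summed phosphofructokinase level was 7.52 RPKM (5.69 to 8.76) in PS2APP and 4.48 RPKM (3.87 to 5.61) in non-Tg myeloid libraries. The myeloid hexokinases were near 0, at -0.24 ± 0.17 for Hk2 and 0.14 ± 0.20 for Hk3. The lactate exporter Slc16a3 was at 0.56 ± 0.29, Hif1a at 0.48 ± 0.25 and the lactate dehydrogenase Ldha at 0.56 ± 0.32, none called. Pdk1, G6pdx, Pfkfb4 and Slc16a7 went the other way on average, and none was called. Pdk1 had 42.8, 39.1, 64.2, 29.3 and 41.2 CPM in PS2APP and 58.4, 47.5, 61.0, 56.1 and 65.3 CPM in non-Tg myeloid libraries. Slc2a5 made up 65.0% (60.7 to 68.8%) of the RPKM of the 3 hexose transporters in PS2APP myeloid cells and 79.0% (73.4 to 83.6%) in non-Tg myeloid cells, ranges that did not meet. Slc2a1 made up 26.6% (24.1 to 30.1%) in PS2APP and 16.5% (12.4 to 24.2%) in non-Tg myeloid cells. Neutrophil and monocyte markers summed to 27.0 to 859 CPM in PS2APP and 93.9 to 1219 CPM in non-Tg myeloid libraries, and 2 of 12 microglial markers, Cx3cr1 and Tmem119, were called lower in PS2APP. Oligodendrocyte markers summed to 1118 to 1829 CPM in PS2APP and 653 to 1045 CPM in non-Tg myeloid libraries, ranges that did not meet, and 2 of the 5 tested, Mbp and Mobp, were called higher. Of 12 astrocyte markers Gfap was called higher (2.77 on the log2 scale) and Aqp4 lower (-1.64), of 5 tested endothelial and mural markers Flt1 higher (1.78), and of 7 tested neutrophil and monocyte markers Ccr2 lower (-2.16). The part of these cell types in the values of Pkm, Pfkl and the other members was not tested, other than by the neuronal and astrocyte marker covariate, with which the log2 fold changes of Pkm and Pfkl were 0.85 and 1.03 (adjusted p = 0.0324 and 0.0250).

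**Figure D4:**
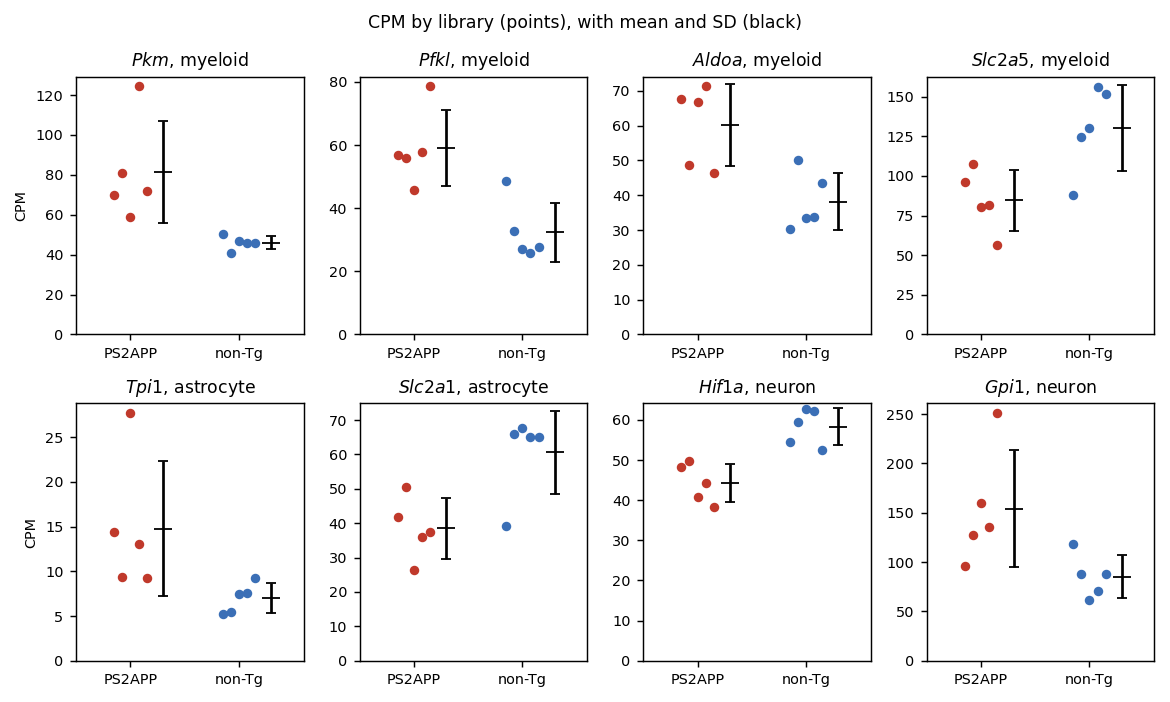
CPM in each of the 5 PS2APP (left) and 5 non-Tg (right) libraries for Pkm, Pfkl, Aldoa and Slc2a5 in myeloid, Tpi1 and Slc2a1 in astrocyte, and Hif1a and Gpi1 in neuron libraries, with the mean and SD in black. Pkm in myeloid libraries lay between 58.9 and 125 CPM in PS2APP and between 40.9 and 50.3 CPM in non-Tg mice.

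In astrocytes 0 of 29 members tested were called by edgeR and 0 by DESeq2, against 0.185% of all 14043 genes, and 5 had an unadjusted p under 0.05 in edgeR, about the share of all genes (17.2%). Tpi1 had 14.4, 9.36, 27.6, 13.03 and 9.30 CPM in PS2APP and 5.21, 5.50, 7.48, 7.54 and 9.22 CPM in non-Tg astrocyte libraries. Among the 29 members it alone had groups that did not overlap, beside 2.99% of all genes, and its log2 fold change was 1.08 ± 0.36 (adjusted p = 0.162, edgeR). Slc2a1, the main astrocyte transporter, had 41.9, 50.5, 26.4, 36.1 and 37.6 CPM in PS2APP and 39.3, 65.9, 67.6, 65.0 and 65.2 CPM in non-Tg astrocyte libraries. All non-Tg libraries other than non-Tg astrocyte 1 were above every PS2APP library, and the log2 fold change was -0.65 ± 0.22 (adjusted p = 0.161). Eno2 had 57.0, 66.2, 121, 52.8 and 51.7 CPM in PS2APP and 54.1, 43.5, 42.7, 29.2 and 36.2 CPM in non-Tg astrocyte libraries (0.76 ± 0.25, adjusted p = 0.159). PS2APP astrocyte 3 was the highest for both Tpi1 and Eno2. Among astrocyte libraries PS2APP astrocyte 3 also had the highest sums of neuronal markers, 1435 CPM, and of oligodendrocyte markers, 1845 CPM. Without it the log2 fold changes were 0.73 for Tpi1 and 0.47 for Eno2.

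Pdk2 had 103, 185, 239, 108 and 108 CPM in PS2APP and 114, 107, 87.6, 89.0 and 75.4 CPM in non-Tg astrocyte libraries, a log2 fold change of 0.65 ± 0.23 (adjusted p = 0.182, edgeR). Slc16a7 had 11.3, 22.7, 17.6, 4.28 and 5.17 CPM in PS2APP and 5.21, 6.36, 5.34, 6.496 and 5.24 CPM in non-Tg astrocyte libraries (1.08 ± 0.43, adjusted p = 0.223). In both genes PS2APP libraries 2 and 3 were the high ones, and without PS2APP astrocyte 3 the log2 fold change of Pdk2 was 0.41. With the summed markers of the other populations as a covariate, the log2 fold changes were 0.27 for Tpi1, 0.16 for Eno2, -0.28 for Slc2a1, 0.20 for Pdk2 and 0.71 for Slc16a7. With the mitochondrial share as a covariate they were 0.41 for Tpi1, -0.42 for Eno2, -0.095 for Slc2a1, -0.57 for Pdk2 and -0.69 for Slc16a7. That share was 5.60 to 8.60% in PS2APP and 2.41 to 4.74% in non-Tg astrocyte libraries. These ranges did not overlap, so this covariate and genotype cannot be told apart here. The marker covariate also moved with genotype, with microglial markers at 71.0 to 140 CPM in PS2APP and 40.7 to 69.7 CPM in non-Tg astrocyte libraries. Neuronal markers in the astrocyte libraries summed to 538 to 1435 CPM in PS2APP and 293 to 557 CPM in non-Tg mice, with 0 of the 11 tested called. Oligodendrocyte markers summed to 862 to 1845 CPM in PS2APP and 674 to 1050 CPM in non-Tg astrocyte libraries. Oligodendrocyte precursor markers summed to 164 to 305 CPM in PS2APP and 125 to 191 CPM in non-Tg astrocyte libraries. Neither list was in the marker covariate, and their part in these values was not tested. Of the 29 members, 17 were above 0 on the log2 scale and the median was 0.078, beside 0.0066 for all genes. Aldoc, at 0.20 ± 0.16, and Pdk4, at -0.37 ± 0.20, gave no call.

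In neurons 0 of 28 members tested were called by edgeR and 0 by DESeq2, against 0.00623% of all 16064 genes, and 7 had an unadjusted p under 0.05 in edgeR, near the share of all genes (22.9%). Hif1a had 48.3, 49.7, 40.8, 44.3 and 38.3 CPM in PS2APP and 54.5, 59.5, 62.7, 62.3 and 52.5 CPM in non-Tg neuron libraries. Among the 28 members it alone had groups that did not overlap, beside 3.13% of all genes, and its log2 fold change was -0.40 ± 0.12 (adjusted p = 0.186, edgeR). Gpi1 had 95.7, 128, 159.9, 136 and 251 CPM in PS2APP and 118, 88.3, 61.5, 71.1 and 87.6 CPM in non-Tg neuron libraries, with PS2APP neuron 5 far above the rest (0.85 ± 0.24, adjusted p = 0.186). Slc2a3, the neuronal glucose transporter, had 42.5, 38.4, 29.6, 41.7 and 22.7 CPM in PS2APP and 30.4, 58.7, 50.9, 57.0 and 54.3 CPM in non-Tg neuron libraries. The non-Tg libraries other than non-Tg neuron 1 were above every PS2APP library, and the log2 fold change was -0.52 ± 0.21 (adjusted p = 0.190). Slc16a1 had 5.86, 3.77, 1.71, 3.27 and 3.19 CPM in PS2APP and 2.95, 6.62, 7.44, 6.90 and 6.36 CPM in non-Tg neuron libraries (-0.78 ± 0.31, adjusted p = 0.192). Again non-Tg neuron 1 was the low library of its group.

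The other 3 neuronal members with an unadjusted p under 0.05 were Ldhb, Pdk2 and G6pdx. Ldhb had 10.3, 10.8, 11.2, 8.34 and 8.98 CPM in PS2APP and 12.53, 11.9, 14.4, 15.4 and 10.9 CPM in non-Tg neuron libraries (-0.39 ± 0.16, adjusted p = 0.196, edgeR). Pdk2 had 22.8, 27.1, 37.2, 23.2 and 49.7 CPM in PS2APP and 32.8, 22.4, 18.5, 16.9 and 19.2 CPM in non-Tg neuron libraries (0.54 ± 0.24, adjusted p = 0.211). G6pdx had 10.8, 8.95, 15.2, 12.6 and 12.6 CPM in PS2APP and 9.21, 11.3, 7.89, 7.26 and 8.81 CPM in non-Tg neuron libraries (0.43 ± 0.19, adjusted p = 0.205). The groups overlapped in all 3, and without PS2APP neuron 5 the log2 fold change of Pdk2 was 0.33. With the summed astrocyte and microglial markers as a covariate, the log2 fold changes in neurons were 0.44 for Gpi1, -0.28 for Slc2a3, -0.48 for Slc16a1 and 0.20 for Pdk2, and -0.31 for Hif1a, -0.29 for Ldhb and 0.35 for G6pdx. Of the 28 members, 16 were above 0 and the median was 0.10, beside -0.02 for all genes, and the main neuronal isoenzymes Pfkp and Eno2 stood at -0.10 ± 0.13 and 0.39 ± 0.19.

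**Figure D5:**
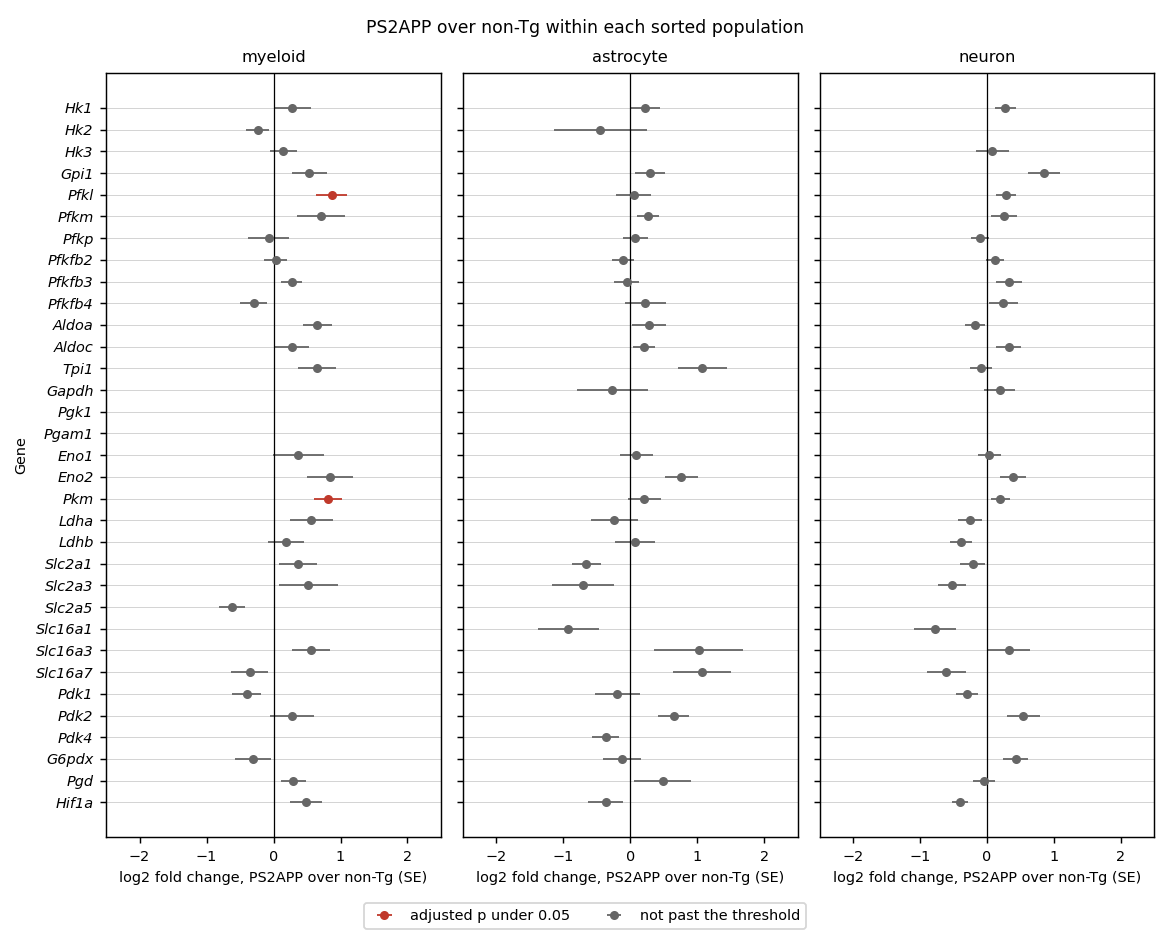
Log2 fold change of PS2APP over non-Tg with its standard error for every member tested in myeloid, astrocyte and neuron libraries, in red where the adjusted p was under 0.05. The red points are Pfkl (0.87) and Pkm (0.81) in myeloid libraries.

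Whether the PS2APP effect differed between populations was tested as an interaction over all 30 libraries, and 0 of 32 members were called by edgeR in each of the 3 differences. The background was 0.757% of 18101 genes for myeloid minus astrocyte, 0.105% for myeloid minus neuron and 0.0331% for astrocyte minus neuron. An unadjusted p under 0.05 was found for 6, 4 and 3 members in these differences, against 13% (2350), 9.65% (1746) and 4.97% (900) of all 18101 genes, and DESeq2 called 3, 0 and 0. For myeloid minus astrocyte the 3 were Hk3, Slc2a1 and Slc2a5. The shares of all genes above are those of edgeR, and none is given for DESeq2. Slc2a1 had a difference of 0.95 ± 0.31 on the log2 scale (edgeR adjusted p = 0.144, DESeq2 adjusted p = 0.0210), from its own fold changes of 0.36 in myeloid cells and -0.65 in astrocytes. Hk3 and Slc2a5 rest on astrocyte libraries with few counts, for Hk3 9, 7, 6, 3 and 6 in PS2APP and 0, 3, 4, 0 and 1 in non-Tg mice. Microglial markers in the same libraries summed to 71.0 to 140 CPM in PS2APP and 40.7 to 69.7 CPM in non-Tg astrocyte libraries, 2 of the 9 tested called higher, and their part in these differences was not tested. The 2 members called in myeloid cells gave a difference from astrocytes of 0.76 ± 0.32 for Pfkl (adjusted p = 0.297, edgeR) and 0.53 ± 0.29 for Pkm (adjusted p = 0.440). Other members with an unadjusted p under 0.05 in edgeR were not called by it. Myeloid minus neuron gave 0.73 for Aldoa, 0.79 for Hif1a, -0.82 for G6pdx and -1.48 for Slc2a5. Astrocyte minus neuron gave 2.40 for Hk3, 1.14 for Tpi1 and 1.64 for Slc16a7. Myeloid minus astrocyte gave -2.44 for Hk3, -3.56 for Slc2a5, -1.49 for Slc16a7 and 0.78 for Hif1a.

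Among the neighbouring pathway genes, edgeR called 0 of 64 tested by genotype in myeloid cells, 0 of 69 in astrocytes and 0 of 69 in neurons, with 8, 7 and 12 at an unadjusted p under 0.05, at or below the shares of all genes given above. DESeq2 called 1, 0 and 0, the mitochondrial malate dehydrogenase Mdh2 higher in PS2APP myeloid cells, where edgeR gave a log2 fold change of 0.63 ± 0.23 (adjusted p = 0.133). Of the interaction tests, 1 of 76 pathway genes was called, Dlst, a subunit of the 2-oxoglutarate dehydrogenase complex, lower in the myeloid minus astrocyte difference by both tools. Its own log2 fold changes were -0.41 ± 0.18 in myeloid cells and 0.57 ± 0.19 in astrocytes, neither called. The glycogen genes, 10 tested in myeloid cells, had a median log2 fold change of -0.15 there, and the 11 tested in astrocytes a median of -0.18. The 16 citric acid cycle genes had a median of 0.24 in myeloid cells and 0.12 in astrocytes.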

How the data were processed

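The authors deposited, per the file headers, a read count and an RPKM value for each Entrez gene ID in each library. Reads were aligned with GSNAP to GRCm38, per the submitters' processing notes. Its version, the annotation and the rule for reads matching several genes were not given in the sources used here. RPKM equalled the counts times 1 factor per library over 1 length per gene in all 4845 genes tested, and served to compare genes. The factor was not set by total counts alone. Non-Tg astrocyte 1, with 6581186 counts, had 2.997 RPKM of Hk1 from 254 counts. Non-Tg astrocyte 4, with 6544142 counts, had 3.411 RPKM of Hk1 from 388 counts. Symbols were attached from Entrez IDs for 31049 of 36528 genes.

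Counts were tested with edgeR 4.0.16 (R 4.3.3): filterByExpr with a minimum count of 10, TMM normalization, a quasi-likelihood fit and Benjamini-Hochberg adjustment over all genes tested, with calls at an adjusted p under 0.05. Genotype was tested within each population (10 libraries), and populations and interactions in a joint fit of 30 libraries. DESeq2 1.42.0, median-ratio size factors, no filter, other-population markers or the mitochondrial share as covariates, PS2APP in place of non-Tg libraries, and leaving out each library were alternatives. Leaving out the 3 libraries farthest out was added after the data were seen. The tests were checked on simulated counts. Replicates of a group differed by more than counting noise. Levels are means ± SD and fold changes ± SE.

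The members and gene lists were chosen with earlier results of these data known. All 33 members were described by role. Genotype and interaction fold changes were printed for members called or with an unadjusted p under 0.05, for the leading isoenzymes and for some other members. Uniqueness was counted as 50-base words of GENCODE protein-coding transcripts, and promoters came from RefSeq. The limit of 3 counts covers counting error only, whereas the SD and SE values also hold the spread between libraries of a group.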

Additional observations from a re-analysis of the deposited data

Results flagged for a closer look

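Single libraries stood apart from the other 4 of their group in 19 of 170 gene and group combinations. The measure was the gap to the nearest library over the range of the group. Its cut-off marks about 1 in 20 groups of independent normal values. The CPM were not logged and the genes share libraries, so 19 of 170 cannot be set against that rate. The same count over all genes was not made. All values are CPM. In myeloid libraries Hk2 was high in PS2APP myeloid 3 (168) and low in non-Tg myeloid 1 (115), Hk3 was high in non-Tg myeloid 2 (82.1), Slc2a3 was high in PS2APP myeloid 2 (33.8) and Pgd was low in PS2APP myeloid 4 (71.9). In PS2APP astrocyte 3, Pfkp was low (234) while Tpi1 (27.6) and Eno2 (121) were high. This library also had the highest sums of neuronal (1435) and oligodendrocyte (1845) markers among astrocyte libraries. Slc16a3 was high in PS2APP astrocyte 2 (10.7), which had the highest sum of microglial markers among astrocyte libraries (140). In non-Tg astrocyte 1, Gpi1 was high (69.3) and Slc2a1 low (39.3), and in non-Tg astrocyte 4, Pdk1 (13.6), Pdk4 (48.9) and Hif1a (49.0) were high. In neuron libraries Pfkm was high in PS2APP neuron 5 (171), Pfkfb4 (9.47) and Pkm (34.3) were low in non-Tg neuron 3, and Slc2a3 (30.4) and Slc16a1 (2.95) were low in non-Tg neuron 1. The cause was not tested in any of these.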

How the results depend on the processing

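The number of members called by genotype in myeloid cells was 2 with edgeR and 4 with DESeq2 (Pkm, Pfkl and Aldoa higher, Slc2a5 lower), 0 with the mitochondrial share as a covariate, and 0 to 3 with each library left out; the cause was not tested. It was 0 in astrocytes and 0 in neurons under all alternatives run. No DESeq2 share over all genes is given here, so the DESeq2 counts have no background beside them. With the mitochondrial share as a covariate, 3 uncalled astrocyte fold changes reversed, to -0.42 for Eno2, -0.69 for Slc16a7 and -0.57 for Pdk2, and the other 2 were smaller, at -0.095 for Slc2a1 and 0.41 for Tpi1. In astrocytes that share did not overlap between genotypes, so the covariate and genotype cannot be told apart there. The interaction of myeloid minus astrocyte gave 0 members with edgeR, 3 with DESeq2 and 0 to 1 with each library left out: Hk3 without PS2APP astrocyte 4 or non-Tg astrocyte 3, and Slc2a5 without non-Tg astrocyte 5. Between non-Tg populations, calls were lost for Pkm over neurons with median-ratio size factors, DESeq2, no filter or without the 3 libraries farthest out (0.26 to 0.36), for Pkm over astrocytes with median-ratio size factors (0.44) or no filter (0.54), for Ldha over astrocytes with median-ratio size factors (0.46), DESeq2 (0.46), no filter (0.55) and in 8 fits without 1 library, for Pkm over astrocytes and Slc2a5 in astrocytes against neurons in 1 such fit each, for Pkm over neurons in 2, and for Tpi1 over neurons with no filter (0.70). In PS2APP in place of non-Tg libraries, calls were lost for Pdk4 in myeloid cells over neurons (1.42), Slc16a1 in myeloid cells against astrocytes (-1.04) and Slc2a5 in astrocytes against neurons (-0.52). No paired analysis was possible because the labels give no replicate numbers and tie no library to an animal. Depth limits the low members: Slc2a5 had 0 to 9 counts per library in astrocytes and 2 to 9 in neurons, Hk2 0 to 31 in astrocytes and 3 to 13 in neurons, Hk3 0 to 9 in astrocytes, and Pdk4 0 to 18 in myeloid cells and 0 to 6 in neurons.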
